A study of Mus musculus with 1111 samples.

Results

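The 9 genes described here encode chemokine ligands: Ccl2, Ccl3, Ccl4, Ccl6, Ccl9, Ccl12, Cxcl2, Cxcl10 and Cxcl16. They were taken by gene symbol from 35583 genes in the count tables, and each symbol stood on 1 gene. Their levels were read in single microglia, the resident macrophages of the brain, from 3-month-old mice that had received plasma proteins carrying the fluorescent dye NHS-Atto647N 20 hours before isolation. Cells were sorted by the plasma signal they carried into plasma intensity none, low and high, and each sorted cell gave 1 Smart-seq2 library, a method that reads full-length transcripts. No strain, sex, genotype or animal is named in the labels, and no sample from an uninjected mouse was analysed here. Cells were kept from a depth of 50000 reads upward if 500 genes or more were read in them, and of the 987 cells kept 35.1% belonged to plasma none, 35.6% to plasma low and 29.4% to plasma high.

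Chemokines are small secreted proteins that bind receptors on the surface of leukocytes and direct their movement. Ccl2 and Ccl12 bind Ccr2 and attract monocytes. Ccl3 binds Ccr1, and Ccl3 and Ccl4 are known as early products of activated microglia and macrophages. Ccl6 and Ccl9 are rodent chemokines that bind Ccr1 and are made by myeloid cells. Cxcl2 attracts neutrophils through Cxcr2, Cxcl10 is an interferon-induced ligand of Cxcr3, and Cxcl16 is made as a membrane protein that also works as a scavenger receptor, binds Cxcr6 when shed, and is cut from the surface by the protease Adam10.

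Since animals are not identified, a group is treated as a single sample of cells and no p-value is given. The sample titles also carry TH 1, TH 2 or TH 3, a code that the labels leave unexplained. The TH numbers served as 3 sets of wells, and each SD over them (n = 3) is not a spread between animals. Reads of the cells of a group were summed within each TH number and scaled to CPM, counts per 1000000 reads in genes after TMM scaling. By sum, 21309816 to 49323522 reads were available, and the median depth of a cell was 207429 reads for plasma none, 229931 for plasma low and 267143 for plasma high. Plasma none lay in plate columns 1 to 8, plasma low in 9 to 16 and plasma high in 17 to 23, so group and plate position cannot be told apart. Of 8 microglia markers the sums lay between 47633 and 56517 CPM in all 9 sums. Markers of border-associated macrophages, another source of chemokines in the brain, summed to at most 1.34 CPM for plasma none, 22.2 for plasma low and 4.50 for plasma high, with 6 of 8 (Cd163, Lyve1, Ms4a7, F13a1, Pf4 and Clec4n) at 0 reads in every cell. Monocyte markers summed to at most 7.25, 8.42 and 7.57 CPM in the same order, with 6 of 8 at 0, among them Ly6c2 and Plac8. From none to high, neuron markers summed to at most 0.646, 4.88 and 58.1 CPM, lymphocyte markers to 35.9, 41.01 and 82.9 with 7 of 8 at 0, oligodendrocyte markers to 191.5, 216.1 and 267.7, and astrocyte markers to 377.7, 334.2 and 267.997. Endothelial markers gave the largest sums outside the microglia list. They lay at 429.04 to 540.9 CPM for plasma none, 548.5 to 631.5 for low and 498.6 to 642.1 for high. Neutrophil markers, with 7 of 8 at 0 and all reads from Csf3r, summed to at most 437.2, 407.9 and 378.1 CPM. Cells with at least 3 markers of another type numbered 2, 0 and 5 from none to high, and without them Cxcl16 still met the size rule used below, at a log2 ratio of 1.10 between plasma high and plasma none.

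Of the 9 genes, 7 lie on chromosome 11 and 2 on chromosome 5, at the same coordinates in the tables and in GENCODE M21 (GRCm38). All 9 are annotated as protein coding. Ccl9 (chr11:83572919-83578636, minus strand), Ccl6 (chr11:83587882-83593087, minus), Ccl3 (chr11:83647844-83649355, minus) and Ccl4 (chr11:83662584-83664683, plus) form a cluster in which 9246 bases separate Ccl9 from Ccl6 and 13229 bases separate Ccl3 from Ccl4. Ccl2 (chr11:82035571-82037453, plus) and Ccl12 (chr11:82101845-82103400, plus) are 64392 bases apart. Cxcl16 (chr11:70453983-70459984, minus) lies elsewhere on chromosome 11, and Cxcl2 (chr5:90903871-90905938, plus) and Cxcl10 (chr5:92346638-92348889, minus) are on chromosome 5. No stretch of 31 bases in the transcripts of any member occurred in those of another member, so reads of that length can be assigned among the 9. Cxcl2 shared 7.59% of its 31-base stretches with Cxcl3, which had 0 reads, and Ccl9 shared 3.98% with other genes. Cxcl16 shared 18.5% with Zmynd15, a gene on the opposite strand whose exons overlap it, and use of strand in counting is not given in the sources used here.

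Promoter sequences are shown for members that shared more cells with Ccl4 than independent reading gives, and for members read in the largest shares of cells. RefSeq promoters (GRCm38.p6) were found for 6 of the 9 genes, and the 250 bases before the start of 5 of them are printed 5′ to 3′ on the strand of the gene. Capitals mark matches, on either strand, to the NF-kB consensus, the AP-1 site TGANTCA, the ISRE core GAAANNGAA or the TATA box TATAAA. NF-kB and AP-1 are factors activated by inflammatory signals, and the ISRE is the element bound by interferon-activated factors. Ccl3 (chr11:83649379-83649628, minus) and Ccl12 (chr11:82101595-82101844, plus) shared 16 and 10 cells with Ccl4, where independent reading gives 1.49 and 3.68, Cxcl10 (chr5:92348890-92349139, minus) was read in a single cell, which held Ccl4, and Ccl6 (chr11:83593088-83593337, minus) and Ccl9 (chr11:83578637-83578886, minus) were read in the largest shares of cells and shared 11 and 7 with Ccl4, where independent reading gives 9.28 and 6.11.
Ccl3: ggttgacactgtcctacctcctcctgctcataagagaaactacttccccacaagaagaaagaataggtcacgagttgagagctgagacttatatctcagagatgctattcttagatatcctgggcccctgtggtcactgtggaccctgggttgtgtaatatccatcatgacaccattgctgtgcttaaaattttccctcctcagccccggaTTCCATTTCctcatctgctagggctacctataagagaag
Ccl12: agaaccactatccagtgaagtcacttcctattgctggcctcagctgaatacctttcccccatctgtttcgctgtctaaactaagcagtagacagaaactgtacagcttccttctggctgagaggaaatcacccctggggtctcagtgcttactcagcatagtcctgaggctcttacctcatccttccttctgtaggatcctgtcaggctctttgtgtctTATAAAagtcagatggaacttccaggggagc
Cxcl10: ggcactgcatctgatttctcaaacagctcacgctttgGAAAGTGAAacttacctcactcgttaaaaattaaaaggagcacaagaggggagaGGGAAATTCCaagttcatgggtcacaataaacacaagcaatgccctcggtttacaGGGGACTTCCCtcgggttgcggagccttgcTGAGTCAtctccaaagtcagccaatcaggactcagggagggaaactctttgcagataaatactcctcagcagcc
Ccl6: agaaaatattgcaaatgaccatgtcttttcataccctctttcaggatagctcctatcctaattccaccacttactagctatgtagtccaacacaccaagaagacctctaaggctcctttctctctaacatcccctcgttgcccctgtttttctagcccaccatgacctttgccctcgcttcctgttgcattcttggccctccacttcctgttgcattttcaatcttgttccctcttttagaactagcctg
Ccl9: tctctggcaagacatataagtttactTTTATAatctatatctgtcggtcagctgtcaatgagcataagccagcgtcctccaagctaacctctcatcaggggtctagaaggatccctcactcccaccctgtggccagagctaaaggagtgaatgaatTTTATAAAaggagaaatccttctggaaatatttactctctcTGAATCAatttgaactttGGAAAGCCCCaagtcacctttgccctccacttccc
The window of Cxcl10 held matches to NF-kB, AP-1 and the ISRE core, and that of Ccl9 held NF-kB, AP-1 and TATA matches, some of which overlap each other. The Ccl3 window held 1 ISRE core match on the opposite strand, 39 to 31 bases before the start, and the Ccl12 window held a TATA box 31 to 26 bases before the start. The Ccl6 window held none of the 4 motifs. Among 32851 promoter windows of the same length, 7.25% held the NF-kB consensus, 6.75% AP-1, 7.13% the ISRE core and 12.4% the TATA box. Over the 6 members with a window, 3 held the NF-kB consensus (Ccl9, Cxcl2 and Cxcl10), and 2 each held AP-1, the ISRE core and the TATA box. A match is a description of letters and not a site of binding.

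The 9 ligands fell into a group read in many cells and a group read in few. Over the 987 cells a read was found in 44.2% of cells for Ccl6 (95% Clopper-Pearson interval 41.05% to 47.3%), 29.1% for Ccl9 (26.3% to 32.02%), 19.5% for Cxcl16 (17.03% to 22.1%) and 17.5% for Ccl12 (15.2% to 20.0%). Ccl3 was read in 70 cells (7.09%, 5.57% to 8.88%), Ccl4 in 21 (2.13%, 1.32% to 3.23%), Ccl2 in 10 (1.01%, 0.487% to 1.86%) and Cxcl10 in 1. Cxcl2 had 0 reads in all 987 cells, which allows a share of up to 0.304%. These intervals and limits cover counting error only, and the reads carry no molecular identifiers. Per kilobase of exon, the level over the 9 sums was highest for Ccl6, at 145.5 ± 38.7 CPM per kb (SD, n = 9 sums), then Ccl12 at 117.6 ± 74.9, Ccl9 at 64.8 ± 21.1, Ccl4 at 48 ± 83.4, Ccl3 at 39.9 ± 45.5, Cxcl16 at 29.03 ± 13.7, Ccl2 at 6.45 ± 8.03 and Cxcl10 at 1.28 ± 3.85. The ranges of every neighbouring pair in that order overlapped, so the order within pairs is not larger than the spread between sums.

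Most of the signal of the rarely read ligands came from 1 cell or a few cells, except for Ccl3 in plasma low. There Ccl3 was read in 35 cells, its top cell gave 9.45% of its reads, and 7 cells were needed to reach 50%. Among 2324 genes within 0.5 log2 of that level, 85.5% had a top cell share as large. A member with a read was counted as held by 1 cell where a single cell gave at least 50% of its reads in a group. This was so for 4 of the 8 members with a read: Ccl2, Ccl3, Ccl4 and Cxcl10. No share over all genes with a read stands beside this count. A gene read in 1 cell, as Cxcl10 was, meets it in any case, and Ccl2 was read in only 3 or 4 cells of each group. In plasma high it held for those 4, in plasma low for Ccl2 and in plasma none for Ccl4. Among members with at least 20 CPM in the group, Ccl3 and Ccl4 were held by 1 cell in plasma high, 2 of 6, beside 2.15% of all 6852 genes at that level. In plasma low and plasma none this was 0 of 5 and 0 of 4 members, beside 0.687% and 1.09% of all genes. None of the 4 members that were also read in at least 10% of a group's cells (Ccl6, Ccl9, Ccl12 and Cxcl16) was held by 1 cell in any group, beside 0.241% of such genes for plasma high, 0.0375% for plasma low and 0.042% for plasma none.

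**Figure D1:**
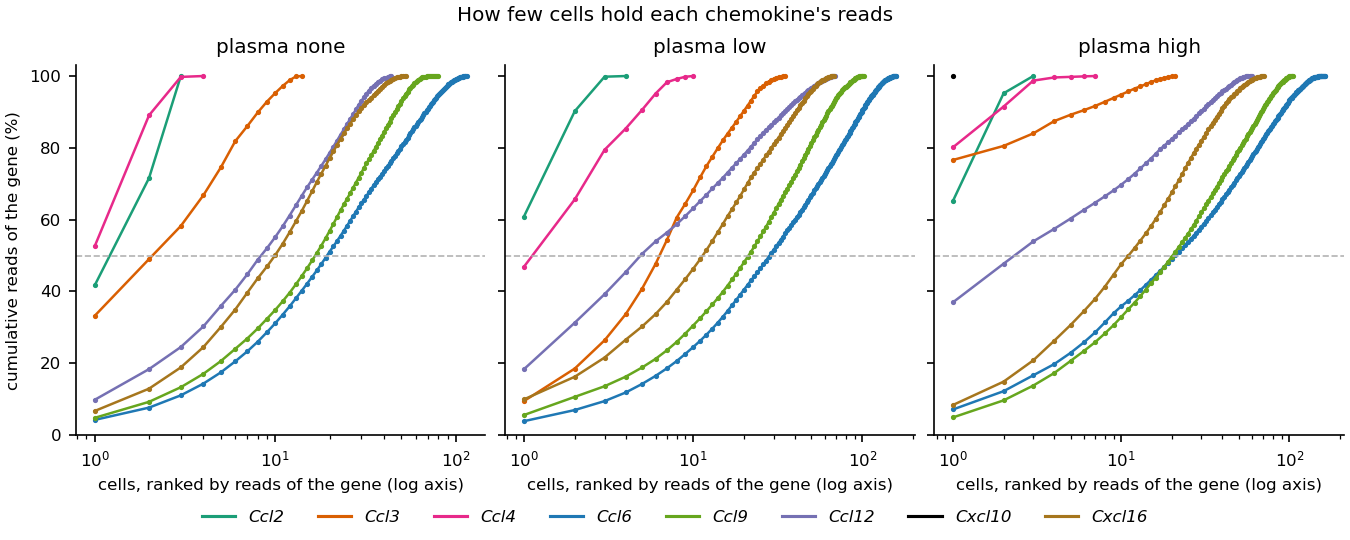
Cumulative percentage of each chemokine's reads (vertical axis) over the cells of a group ranked by reads of that gene (horizontal axis, log scale), with 1 line per gene and 1 panel per group; the dashed line marks 50%. The first cell gave 80.2% of Ccl4 and 76.6% of Ccl3 reads in plasma high, while Ccl6 needed 20 to 29 cells to reach the line.

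A microglial cell of plasma high in TH 2, well B20, carried the largest share of this signal. It held 561670 reads, 1823 genes and 7 of the 9 ligands. In that cell Ccl4 stood at 13243 CPM, Ccl3 at 8774, Ccl12 at 5989, Cxcl10 at 2005, Cxcl16 at 1985, Ccl2 at 1353 and Ccl6 at 532, and the 9 ligands together took 3.39% of its reads. This single cell gave 80.2% of the Ccl4 reads of plasma high, 76.6% of Ccl3, 65.2% of Ccl2, 36.98% of Ccl12, 8.39% of Cxcl16 and all of the Cxcl10 reads. Its 8 microglia markers were all read, with P2ry12 at 4353, Tmem119 at 2704 and Cx3cr1 at 8932 CPM. The medians over all cells were 8908, 4013 and 7028 CPM. Its microglia markers summed to 37606 CPM, at or under which lay 9.32% of cells. Mrc1, Cd163, Lyve1 and Pf4 had no read. Csf3r was the only neutrophil marker read, at 2651 CPM, and the astrocyte markers summed to 506 CPM. Of 24 NF-kB targets and inflammatory cytokines the cell held reads of 17, against a median of 3 over all cells. Among them were the cytokines Tnf at 422 CPM and Il1b at 714, genes read in 0.811% and 0.608% of cells. Of 19 interferon response genes it held 9, against a median of 0.

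The highest Ccl4 level was in a second plasma high cell, TH 3 well N19, whose library stood apart from most others. It held Ccl4 at 13588 CPM, Ccl12 at 7278, Ccl2 at 4504, Ccl3 at 2891 and Cxcl16 at 129.04, from 77494 reads and 557 genes, a gene count at or under which lay 0.507% of cells. Its P2ry12 was at 12.9 CPM and Tmem119 and Cx3cr1 were at 0, while Csf1r was at 2478, and 4 of the 8 microglia markers had a read. It held no read of a monocyte, neutrophil, lymphocyte or border-associated macrophage marker. Of the 24 NF-kB targets and inflammatory cytokines it held 3, and of the 19 interferon response genes 0. The third such cell, TH 1 well B22 of plasma high, held Ccl9 at 5244 CPM, the highest of any cell, with Ccl4 at 3090, Cxcl16 at 2362, Ccl6 at 1338, Ccl3 at 1162 and Ccl12 at 304.4. All 3 cells had Cd83, a surface protein of activated antigen-presenting cells, at 11162 CPM or more (15406 in B20, 11162 in N19 and 21213 in B22), a gene read in 33.5% of cells. These 3 cells, which held 0.836% of the reads of plasma high in all genes, gave 98.7% of its Ccl4 reads, 95.2% of Ccl2, 84.02% of Ccl3, 43.9% of Ccl12, 12.3% of Cxcl16, 4.93% of Ccl9 and 1.78% of Ccl6.

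The same measure in the other groups was smaller in CPM but alike in share for Ccl4. The cells with the most Ccl4 of each TH number held 79.4% of Ccl4 reads in plasma low (3 cells) and 89.1% in plasma none (2 cells, as TH 3 had none). The highest Ccl4 levels there were 2536 CPM for plasma low (TH 1 well E15) and 507 CPM for plasma none (TH 1 well J4), against 13588 for plasma high. Cells at 1000 CPM or more of Ccl4 numbered 5 in all, 3 for plasma high, 2 for plasma low and 0 for plasma none. None of the 33 other cells in the plate row or column of B20 held a Ccl4 or Ccl2 read, and none of the 31 in those of N19 did. For Ccl3, 5 of the 33 cells in the row or column of B20 held a read, at most 71 reads against its 4928, beside 21 other cells with a Ccl3 read in TH 2.

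**Figure D2:**
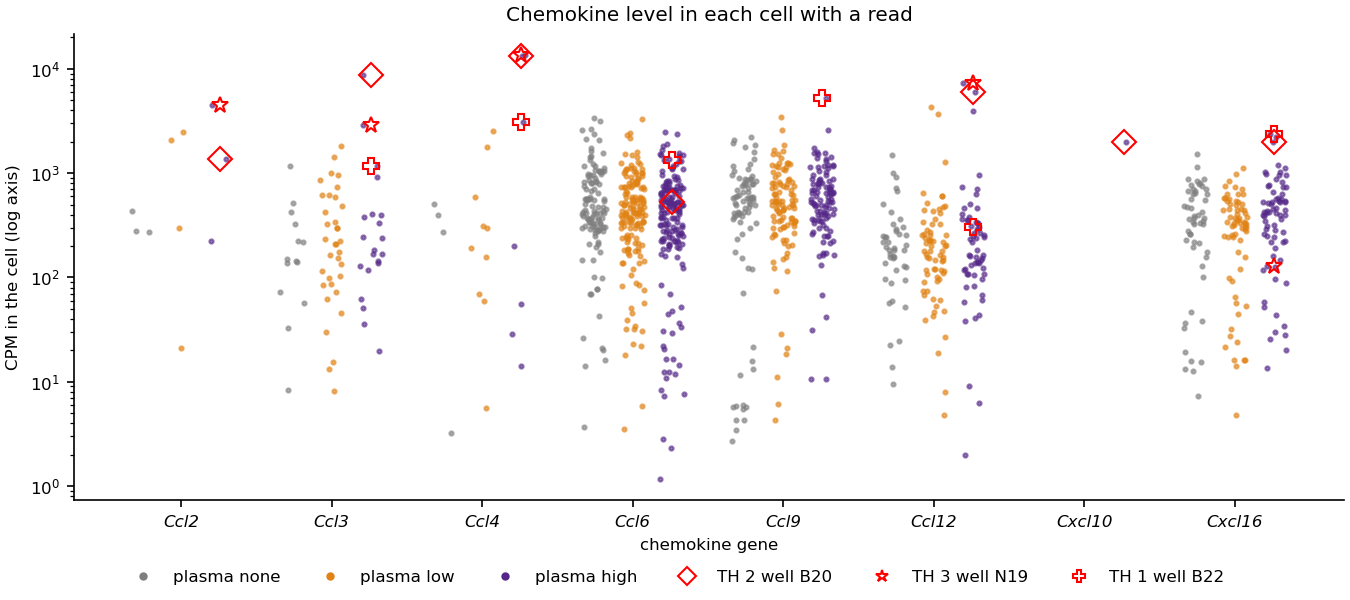
Level of each chemokine in every cell with at least 1 read (vertical axis, CPM on a log scale), by gene and group; red outlines mark 3 plasma high cells. Wells B20 and N19 stand highest for Ccl4 at 13243 and 13588 CPM, and the cells of Ccl6 and Ccl9 form bands that overlap between groups.

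Ccl4 summed to 8.96, 6.72 and 0 CPM for plasma none (TH 1, TH 2 and TH 3), 5.76, 9.85 and 14.1 for plasma low, and 20.2, 174.2 and 45.4 for plasma high. All 3 plasma high sums lay above the sums of the other groups. Ccl4 did not pass the filter on level and cells. Of the genes that did, 13.9% separated in either direction between plasma high and plasma none, and 9.67% between plasma high and plasma low. With the cell holding the most Ccl4 left out of each sum, plasma high stood at 0.270, 2.57 and 0 CPM, plasma low at 0.360, 0.170 and 7.13, and plasma none at 2.06, 0.0315 and 0, and the 3 groups overlapped. The log2 ratio of CPM + 1 between plasma high and plasma none, taken within each TH number, was 3.71 ± 2.32 (SD, n = 3) with every cell and 0.17 ± 1.54 with the top cells left out. Without B20 alone it was 1.84, and without N19 alone 1.87, both chosen after the data were seen. Between plasma high and plasma low it was 2.43 ± 1.37 and -0.50 ± 2.34. The cells with a Ccl4 read numbered 4 for plasma none (1.16%, 0.316% to 2.93%), 10 for plasma low (2.85%, 1.37% to 5.18%) and 7 for plasma high (2.41%, 0.976% to 4.91%), and these intervals overlap.

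Ccl3 summed to 6.51, 5.64 and 15.8 CPM for plasma none, 43.7, 25.6 and 15.95 for plasma low, and 29.95, 117.8 and 13.8 for plasma high. The plasma low sums all lay above those of plasma none, with 15.95 against 15.8 CPM at the closest, beside 9.55% of genes tested that separated in either direction. The plasma high sums overlapped with both other groups. Without the top cell of each sum, plasma none stood at 3.56, 1.93 and 6.82 CPM, plasma low at 34.3, 20.3 and 8.64, and plasma high at 22.6, 4.18 and 4.15. Plasma high exceeded plasma none by a log2 ratio of 2.01 ± 2.17 with every cell and 0.86 ± 1.49 without the top cells, with a negative value in TH 3 in either case (-0.19 and -0.60). Without B20 alone the ratio was 0.50. For plasma low against plasma none it was 1.53 ± 1.34 with every cell and 2.04 ± 1.5 without the top cells, positive in 3 of 3 TH numbers in either case. Ccl3 was read in 4.05% of cells of plasma none (2.23% to 6.70%), 9.97% in plasma low (7.04% to 13.6%) and 7.24% of plasma high (4.54% to 10.9%). At an equal depth of 50000 reads per cell the expected shares were 3.81% ± 0.725, 9.44% ± 2.19 and 6.94% ± 3.47 (SD, n = 3). Plasma low exceeded plasma none by 6.85, 6.34 and 3.72 percentage points in the 3 TH numbers, a mean of 5.64. Of 4425 genes read in 10% to 60% of cells, a class that does not hold Ccl3, 24.6% had a mean difference as large.

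Ccl2 was read in 3, 4 and 3 cells of plasma none, low and high, 0.867%, 1.14% and 1.03% of cells. It summed to 6.60, 0 and 2.21 CPM for plasma none, 0.0799, 22.2 and 0 for plasma low, and 0, 17.5 and 17.4 for plasma high, so that each group had at least 1 sum at or near 0. Without the top cell of each sum the highest value left was 8.72 CPM, in TH 2 of plasma low. Cxcl10 was read only in well B20, with 1126 reads, and in no cell of plasma none (up to 0.867% of cells) or plasma low (up to 0.855%). Cxcl10 overlaps Art3 on the opposite strand, which was read in 3 cells, 1 of them B20. None of Ccl2, Ccl3, Ccl4, Cxcl2 and Cxcl10 reached the filter on low values used below, since none was read in 10% of the cells of a group.

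**Figure D3:**
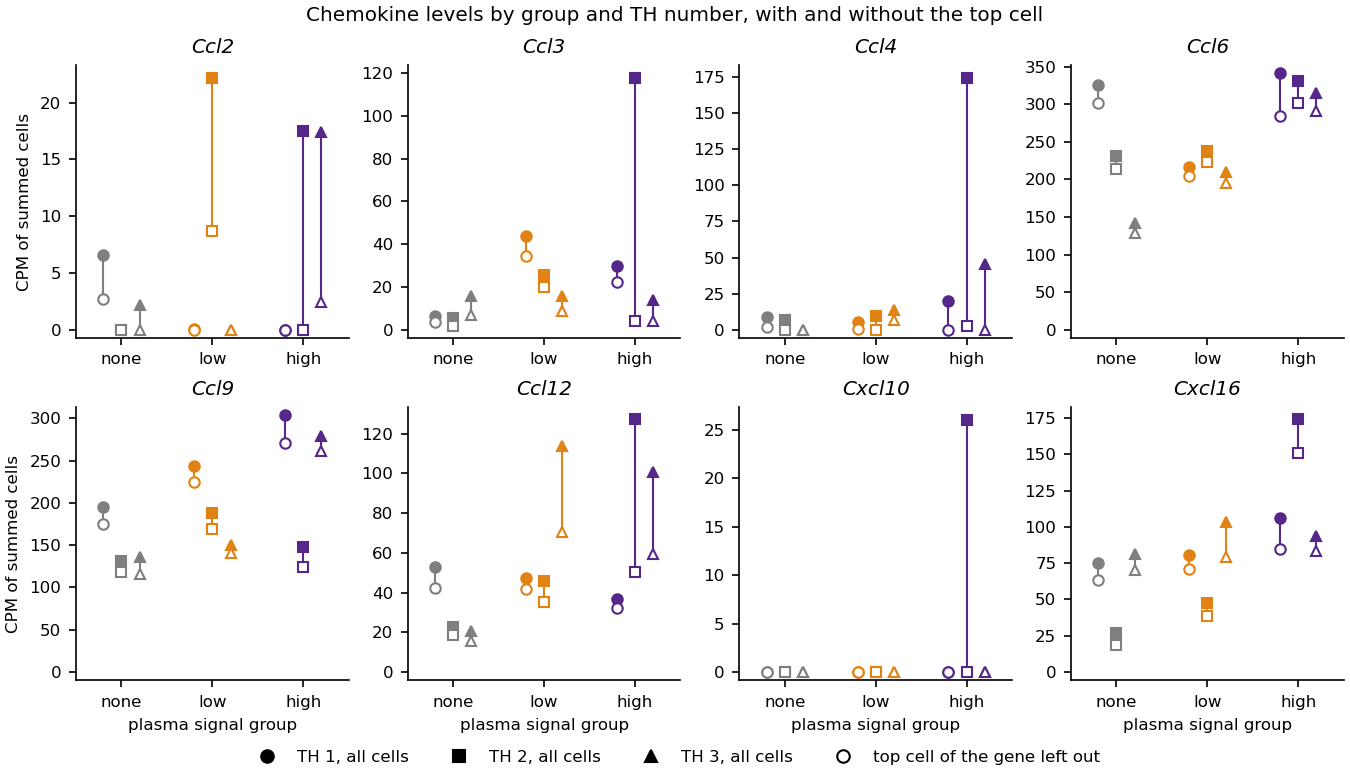
CPM of the summed cells (vertical axis) for the 8 chemokines with a read, by plasma signal group; filled symbols use all cells of a TH number, open symbols joined to them leave out the cell with the most reads of that gene. The plasma high points of Ccl4 fall from 20.2, 174.2 and 45.4 CPM to at most 2.57, while those of Ccl6 and Ccl9 move little.

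Levels were called different between groups by a rule of size: a mean log2 ratio of CPM + 1 of at least 1 in size over the TH numbers, the same sign in 3 of 3, 20 CPM or more as the mean over both groups, and detection in 10% or more of one of the groups. Ccl6, Ccl9, Ccl12 and Cxcl16 passed the filter on level and cells, and the other 5 did not. Between plasma high and plasma none 1 of the 4 met the rule, Cxcl16, beside 5.15% of 5534 genes tested. It was also the 1 of 4 that met it with the top cell of each gene and sum left out, beside 5.35% of 4824 genes. In plasma low against plasma none the count was 0 of 4 (background 2.64%, and 3.45% without top cells), and the sums of the 2 groups did not separate for any of the 4 (9.55% of genes in either direction), and in plasma high against plasma low 0 of 4 (3.28%, and 3.89% without top cells). The median log2 ratio of the 4 was 0.86 in plasma high against plasma none, 0.37 in plasma low against plasma none and 0.44 in plasma high against plasma low, beside medians of 0.05, 0.05 and 0.01 over all genes tested. These comparisons share groups and are not independent of each other.

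Cxcl16, the membrane-bound ligand, summed to 75.3, 26.97 and 81.3 CPM for plasma none, 80.6, 47.6 and 103.4 for plasma low, and 105.9, 174.5 and 93.8 for plasma high. The plasma high sums all lay above those of plasma none, which was so for 1 of the 4 members and for 13.9% of genes in either direction, and they overlapped with plasma low. Plasma high exceeded plasma none by a log2 ratio of 1.11 ± 1.34, made up of 0.49 in TH 1, 2.65 in TH 2 and 0.20 in TH 3, and 1.19 ± 1.5 without the top cells. Without TH 2 it was 0.35, under the size needed, so the call rested on TH 2, where plasma none had its lowest sum and plasma high its highest. With the cell holding the most Ccl4 of each sum removed, an alternative chosen after the data were seen, the ratio was 0.94 and the rule was no longer met. Its share of cells with a read was 15.3% for plasma none (11.7% to 19.6%), 19.4% for plasma low (15.4% to 23.9%) and 24.5% for plasma high (19.6% to 29.9%). At equal depth plasma high exceeded plasma none by a mean of 9.49 points, and 6.96% of the 4425 genes read in 10% to 60% of cells had a mean difference as large.

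Reads of Cxcl16 and of Zmynd15 came together. Of the cells with a Zmynd15 read 98.1% also held Cxcl16, all but 3 cells, and Cxcl16 alone was read in 40 cells. Zmynd15 reads were 21.1% of Cxcl16 reads in all and a median of 18.7% within cells that held both (quartiles 14.4% and 27.6%). Their centred Pearson correlation over 987 cells was 0.88, the highest of any gene with Cxcl16. Zmynd15 summed to 11.1 CPM for plasma none, 17.6 for plasma low and 28.3 for plasma high, the means of 3 TH numbers. Whether these are reads of 1 transcript or of both strands cannot be told apart.

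Ccl6 summed to 325.6, 231.3 and 141.8 CPM for plasma none, 216.98, 237.8 and 210.5 for plasma low, and 341.2, 331.2 and 314.8 for plasma high. All 3 sums of plasma high lay above those of plasma low, the only case among the 4 members in that comparison (9.67% of genes in either direction), and plasma none overlapped with both. The log2 ratio was 0.57 ± 0.09 between plasma high and plasma low and 0.58 ± 0.54 between plasma high and plasma none, where TH 1 gave 0.07. Against plasma none, plasma low gave 0.01 ± 0.58, with both signs among TH numbers. In plasma high 21 cells were needed to reach 50% of its reads, and the top cell gave 7.14% of them. With each cell weighted equally the ratio of plasma high to plasma low was 0.25.

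The share of cells with a Ccl6 read was higher at each step from plasma none to plasma high, at 33.2% (28.3% to 38.5%), 45.01% (39.7% to 50.4%) and 56.2% (50.3% to 62%). At equal depth the shares by TH number were 37.9%, 28.3% and 31.1% for plasma none, 47.6%, 40.7% and 43.9% for plasma low, and 55.2%, 46.3% and 57.5% for plasma high. Plasma high exceeded plasma none by 17.3, 18.04 and 26.4 points and exceeded plasma low by 7.53, 5.69 and 13.6 points. Of 4425 genes read in 10% to 60% of cells, 0.113% had a mean difference between plasma high and plasma none as large as that of Ccl6, 20.6 points, and their median was 2.59 points. Among cells with a read, the median Ccl6 level was 435 CPM for plasma none, 424 for plasma low and 439.9 for plasma high.

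Ccl9 summed to 195.3, 131.3 and 135.7 CPM for plasma none, 243.4, 188.3 and 149.7 for plasma low, and 303.6, 147.8 and 279.4 for plasma high, and the 3 groups overlapped. Its log2 ratio was 0.61 ± 0.43 between plasma high and plasma none and 0.32 ± 0.19 between plasma low and plasma none, positive in 3 of 3 TH numbers in each. Between plasma high and plasma low it was 0.29 ± 0.62, with -0.35 in TH 2. At equal depth a read was expected in 20.6% ± 1.58 of cells for plasma none, 28.2% ± 3.95 for plasma low and 35.7% ± 8.71 for plasma high (SD, n = 3). The excess of plasma high over plasma none was 21.5, 7.20 and 16.3 points, and 0.994% of the 4425 genes had a mean difference as large as its 15.01 points.

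Ccl12 summed to 53.04, 22.9 and 20.5 CPM for plasma none, 47.1, 45.8 and 114.01 for plasma low, and 36.6, 127.6 and 100.8 for plasma high. TH 1 differed from the other sets: there plasma high was the lowest group, while in TH 2 and TH 3 it was above plasma none. The log2 ratio between plasma high and plasma none was 1.38 ± 1.65, from -0.52, 2.43 and 2.24 in the 3 TH numbers, and 0.96 ± 1.17 without the top cells. Without B20 alone it was 0.94. Between plasma low and plasma none it was 1.07 ± 1.30 and 0.99 ± 1.06. The single top cell gave 36.98% of its reads for plasma high (B20), 18.3% for plasma low (TH 3 well J16) and 9.82% for plasma none. Among 1656 genes within 0.5 log2 of its level in plasma high, 1.69% had a top cell share as large, and the same measure was 13.3% for its level in plasma low and 84.3% in plasma none. Its share of cells at equal depth was 12.2% ± 0.398 for plasma none, 18.95% ± 4.59 for plasma low and 19.9% ± 1.39 for plasma high. Of the 4425 genes, 11.9% had a mean difference between plasma high and plasma none as large as its 7.62 points.

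**Figure D4:**
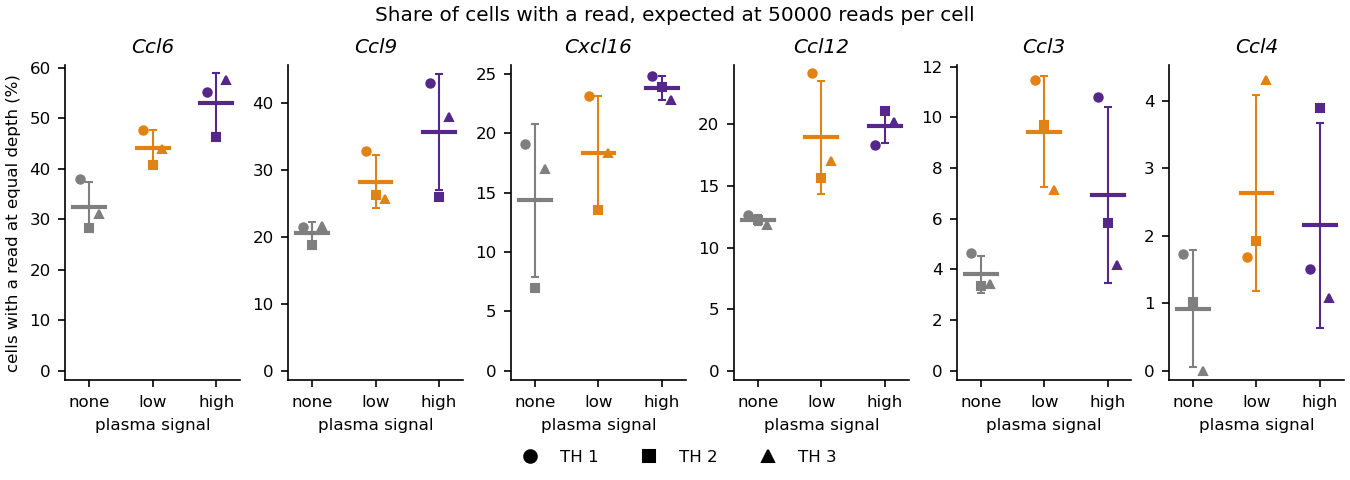
Share of cells with at least 1 read of 6 chemokines (vertical axis, percent) computed for 50000 reads per cell, by plasma signal group; symbols are the 3 TH numbers, and bars and whiskers give their mean and SD. Ccl6 steps from 32.4% to 44.1% and 53.01%, and the plasma high points of Ccl6, Ccl9, Cxcl16 and Ccl12 all lie above those of plasma none.

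Taking the 4 broadly read members as a list, all 4 were read at equal depth in a higher share of plasma high cells than of plasma none cells in 3 of 3 TH numbers, beside 34.9% of the 5761 genes that averaged 20 CPM or more and were detected in 10% or more of a group. Between plasma low and plasma none this held for 4 of 4, beside 38.8%, and between plasma high and plasma low for 2 of 4 (Ccl6 and Cxcl16), beside 11.4%. The shares of the 2 groups did not overlap for 4 of 4 in plasma high against plasma none (18.9% of genes in either direction), for 3 of 4 in plasma low against plasma none (19.2%) and for 0 of 4 in plasma high against plasma low (7.12%). Over all 5761 genes the median difference was 2.44 points in plasma high and 2.91 points in plasma low against plasma none, so detection was higher in these groups for genes at large. The number of ligands in a cell followed: 36.7% of cells of plasma none (31.6% to 42.03%), 27.4% in plasma low (22.8% to 32.3%) and 17.9% of plasma high (13.7% to 22.8%) held no read of any of the 9. At least 3 ligands were held by 10 cells of plasma none (2.89%), 47 in plasma low (13.4%) and 46 of plasma high (15.9%), at the depth sequenced.

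Ccl3 and Ccl4, which are neighbours on chromosome 11, had the highest correlation over cells of any pair of members. Of 21 cells with Ccl4, 16 also held Ccl3 (76.2% of the first and 22.9% of the 70 cells with Ccl3), where independent reading at the same shares would give 1.49 cells. The correlation of log2(CPM + 1) over 987 cells, centred within each group and TH number, was 0.44, and without centring it was 0.28, 0.52 and 0.54 within the 3 TH numbers. Without the 8 cells that held the most Ccl4 of their sum, an alternative chosen after the data were seen, it was 0.24. By group the 16 cells split into 1 (none), 10 (low) and 5 (high). Ccl2 and Ccl4 had a correlation of 0.37 from 3 shared cells, Ccl4 and Ccl12 0.18 from 10, and Ccl3 and Ccl12 0.17 from 26. By contrast Ccl6 and Ccl9, which are neighbours too, shared 36.2% of the cells with Ccl6 and 55.1% of those with Ccl9, where independent reading gives 126.8 cells, with a correlation of 0.09. Cells share their library and depth across genes, and these values are descriptions.

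**Figure D5:**
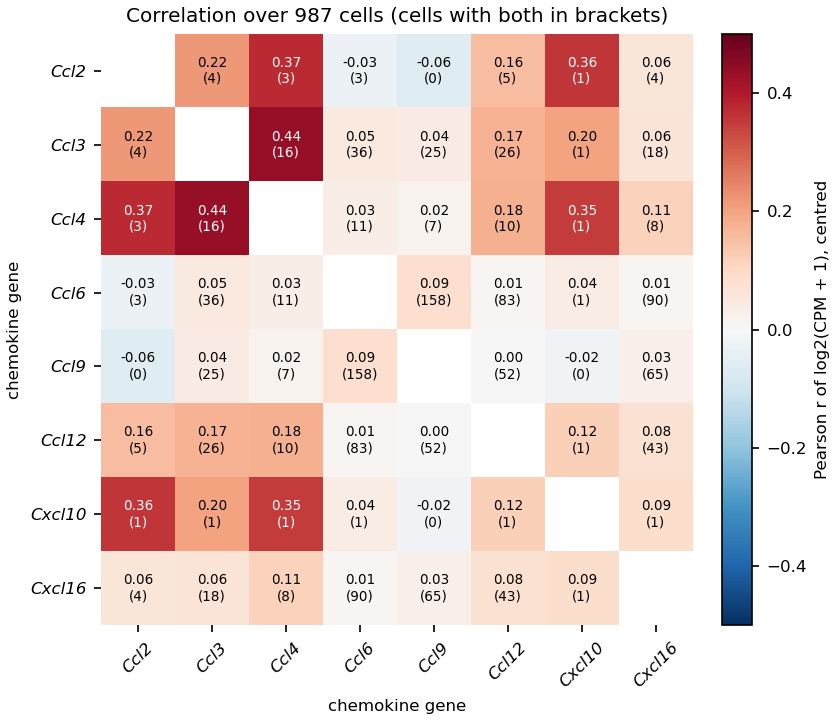
Pearson correlation of log2(CPM + 1) between chemokines over 987 cells, centred within group and TH number (colour and upper number), with the number of cells holding both genes in brackets; both axes list the 8 genes with a read. The pair Ccl3 and Ccl4 has 0.44 with 16 cells, and the pair Ccl6 and Ccl9 has 0.09 with many more shared cells.

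Beyond the members, the genes most like each were sought among 9417 others read in at least 2% of cells, and named at a correlation of at least 0.2. Ccl4 had Ccl3 and Map3k8, a kinase of the inflammatory response, at 0.23 (7 of its 52 cells held Ccl4). Ccl3 had only Ccl4, Cxcl16 had only Zmynd15, and Ccl6, Ccl9 and Ccl12 had no gene at that level, with highest values of 0.13, 0.15 and 0.18. Among cells at 1000 CPM or more, those of Ccl4 (5 cells) held a median of 7 of the 24 NF-kB targets and inflammatory cytokines and 6 of 20 immediate early genes, each against 3 over all cells. The 6 cells at that level of Ccl3 held medians of 2.5 and 2, both under the median of all cells. These 6 had a median of 119300 reads and 1302 genes, against 216801 and 1823 for the 5 of Ccl4, so the counts are at unlike depth. Over all cells with a Ccl3 read the medians were 4 and 4. The 7 cells at that level of Ccl12 (N19, B20 and TH 3 well I18 of plasma high, TH 3 wells C15 and J16 and TH 2 well A13 in plasma low, and TH 1 well I7 of plasma none) held a median of 9 of 19 interferon response genes, from 0 to 18, against a median of 0, and 0.811% of all cells held 9 or more. J16 held 18 of the 19, with Ccl12 at 3706 CPM. The 65 cells at that level of Ccl6 held a median of 1 interferon gene, 3 NF-kB targets and 3 immediate early genes.

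The other chemokine genes were read little. Of 26 other ligands in the count data, 17 had 0 reads in every cell, and the highest of the rest was Ccl25, a ligand of Ccr9, at a mean of 8.93 CPM over the 9 sums from 32 cells, so none reached the filter. Of 23 receptors 2 passed it and 0 met the size rule between plasma high and plasma none. Cx3cr1, the receptor for fractalkine and a microglia marker, stood at 7874 ± 782 CPM for plasma none, 7139 ± 330 for plasma low and 6944 ± 360.9 for plasma high, a log2 ratio of -0.18 ± 0.13 between plasma high and plasma none. Ccr1, a receptor of Ccl3, Ccl6 and Ccl9, was read in 22 cells, with group means of 7.15, 17.9 and 24.4 CPM from none to high, under the filter. Ccr2, the receptor of Ccl2 and Ccl12, was read in 10 cells and Cxcr6, the receptor of Cxcl16, in 3.

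Genes that often accompany chemokines in activated microglia did not reach the size rule when plasma high was set against plasma none: 0 of 10 tested NF-kB targets and inflammatory cytokines (median log2 ratio -0.02), 0 of 2 interferon response genes, 0 of 8 immediate early genes (-0.06) and 0 of 7 shedding and processing enzymes (0.31), beside a median of 0.05 and a share called of 5.15% over all genes tested. With so few genes tested in each list, counts of 0 are near that background. Cd83 had the highest ratio of the tested genes of the first list, at 290.9 ± 46.4 CPM for plasma none, 340.9 ± 59.9 for plasma low and 475 ± 24.7 for plasma high, a log2 ratio of 0.71 ± 0.18, and 0.48 without the top cells. It was the 1 tested gene of that list higher in 3 of 3 TH numbers. Lower in 3 of 3 were Il1a at -0.49 ± 0.15, Nfkb1 at -0.59 ± 0.18 and Zfp36 at -0.16 ± 0.05. Of all genes tested, 32.5% had the same sign in 3 of 3. In that list Nfkbiz had the largest positive ratio among genes at 20 CPM, 1.06 ± 3.11, and Il6 the lowest, -0.90 ± 2.16, each with both signs among TH numbers. Of the interferon genes Rtp4 had a ratio of 1.64 ± 0.67 without reaching 10% of cells, and Bst2 had 0.02 ± 1.23. Among immediate early genes Btg2 had the highest CPM and a ratio of -0.44 ± 0.62, Socs3 had 0.55 ± 0.97, and Jun had -0.66 ± 0.29, lower in 3 of 3 TH numbers. Adam10, which sheds Cxcl16, was the highest of the enzymes, at 916 ± 73.5 CPM for plasma none, 942 ± 115.1 for plasma low and 845 ± 41.8 for plasma high. Its ratio was -0.11 ± 0.12, the lowest of that list, and Dpp7, a peptidase, had the largest among those at 20 CPM, 0.49 ± 0.79, with 46.99% of its plasma high reads in 1 cell.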

How the data were processed

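Smart-seq2 libraries of single microglia were analysed, 1 cell per sample. The deposited tables hold read counts per gene, not normalized, and 1 column holds estimated counts with 2 values of 0.5, which were rounded. Per the submitters' processing notes, bcl2fastq, Trim Galore, STAR 2.5.3a, Seurat and the build mm10 were used. Per the file headers, the TH 2 and TH 3 columns came from alignments reduced to top hits and the TH 1 columns did not, so reads that map to several places can weigh differently in TH 1. How reads were counted, and whether by strand, is not given in the sources used here. Of 1111 labelled cells 1045 were matched to a column by well and TH number, 66 were not analysed here, and 0 columns of values were left unmatched. Groups came from the sample titles.

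Cells with at least 50000 reads and 500 genes entered. Reads were summed by group and TH number and scaled with edgeR 4.0.16 (TMM) in R 4.3.3. Log2 ratios used CPM + 1 within TH numbers. Because no animal is named and a group is 1 sample, no test was run, and a rule of size took its place. Shares at equal depth are the expected share of cells with a read at 50000 reads per cell. Intervals are 95% Clopper-Pearson, and the limit for 0 cells is 3 counts. Wells hold 1 sorted cell and no doublet caller was run. The steps were tested on simulated data. Alternatives included DESeq2 1.42.0 size factors, other pseudocounts and filters, left-out TH numbers, cells and wells, and pooled reads.

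The members and gene lists were chosen with earlier results of these data known. Named beside the members were, in each list, the gene with the highest mean CPM and those with the largest and the lowest ratio of plasma high to plasma none among genes at 20 CPM, and genes with a correlation of at least 0.2 with a member. Other genes (receptors of the members, Cd83, Tnf, Il1a, Il1b, Nfkb1, Zfp36 and cell type markers in single cells) were named after their values were seen. Some genes that this rule names are not reported here. Gene positions were compared with GENCODE M21 (GRCm38), in which 35546 of the 35583 genes were found, 99.581% of them at the same coordinates.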

Additional observations from a re-analysis of the deposited data

How the results depend on the processing

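Of 432 log2 ratios of the members under alternatives, 420 moved by less than 1 SD over TH numbers and 12 by more, and with top cells left out 430 of 432 moved by less. The SD was each ratio's own and was wide for rarely read members, at 2.32 for Ccl4 and 2.17 for Ccl3 between plasma high and plasma none. The falls of these 2 ratios without B20, given above, thus count as less than 1 SD. The count cannot show that a ratio is stable. The count of members meeting the size rule between plasma high and plasma none (1, Cxcl16) became 2 with no filter on low genes (Ccl4 added), 0 without the 8 cells with the most Ccl4 of their sum, and 0 to 2 with a TH number left out. Between plasma low and plasma none the count of 0 became 1 with no filter (Ccl3), 1 without the outermost wells (Ccl12) and 0 to 1 with a TH number left out. Between plasma high and plasma low it became 1 with no filter (Ccl4) and 0 to 1 with a TH number left out. Over all genes, the number called also rose in each comparison with no filter, without the outermost wells and with any TH number left out. A member added under those settings is thus not set apart from genes at large. Without the 8 cells the number called over all genes stayed near that of the main setting. These are numbers of genes and not shares of the genes tested. With top cells left out, the count of 1 for plasma high against plasma none became 2 without the outermost wells (Ccl12 added) and 0 to 2 with a TH number left out, the count of 0 for plasma low against plasma none became 1 with no filter (Ccl3), 1 without the outermost wells (Ccl12) and 0 to 1 with a TH number left out, and the count of 0 for plasma high against plasma low became 1 with no filter (Ccl3) and 0 to 1 with a TH number left out. The 4 members with at least 50% of a group's reads in 1 cell became 2 (Ccl2 and Ccl4) without B20 and 2 without the 8 cells, and 2 to 4 with a TH number left out. The correlation of Ccl3 and Ccl4 moved from 0.44 to 0.24 without the 8 cells. The causes were not tested, beyond the cells and sets that each setting removes.

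The ratios were taken within TH numbers, which serve as a replicate block whose meaning is not stated. With no replicate block, reads pooled over TH numbers, 2 members met the rule in plasma high against plasma none (Ccl12 and Cxcl16) and 1 in plasma low against plasma none (Ccl12). Pooled reads have no TH numbers to compare, so the condition of the same sign in 3 of 3 was dropped here. Ccl12 fails that condition in both comparisons, as its ratio was negative in TH 1. Over all genes, more were also called in both directions than in the main setting, so the added calls are not particular to the members. For Cxcl2, with 0 reads, the number of cells sets the limit, 0.304% of the 987 cells. The settings without B20, N19 or the 8 cells were chosen after seeing the data.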
